A study of Mus musculus with 16 samples.

Results

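The genes described here are 36 enzymes and regulators of fatty acid and cholesterol synthesis, taken by symbol from the 16380 genes listed for whole mouse lung. They comprise 4 regulators (Srebf1, Srebf2, Insig1 and Scap), 15 genes that make, lengthen, desaturate or esterify fatty acids, 16 genes of the mevalonate and sterol steps, and Acoxl, a gene related in sequence to the peroxisomal acyl-CoA oxidases. All 36 were listed and all entered the test, since no filter on low values was applied. RNA sequencing covered 4 groups of 4 libraries, all from C57BL/6 mice aged 10 to 18 weeks. The wildtype groups were littermates of the knockout mice and received saline (WT-Sal, replicates 1 to 4) or bleomycin (WT-Bleo, replicates 5 to 8), and the mice lacking the interleukin-31 receptor chain IL-31RA likewise received saline (KO-Sal, replicates 9 to 12) or bleomycin (KO-Bleo, replicates 13 to 16). The knockout allele lacks exons 4 to 6 of Il31ra and is not described as restricted to a tissue, so that a difference in lung cannot be assigned to any particular cell type. Bleomycin, a drug that breaks DNA and is used to scar the lung, was given intradermally, 6 U/kg in a volume of 50 µl, as 5 injections a week over 4 weeks, and day 28 was the day of lung collection. Male and female mice were used in the study, but no label ties a library to a mouse, sex or litter, so that p-values measure the spread between these libraries. In whole lung, fewer cells of a type and less RNA per cell cannot be told apart.

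Fatty acid synthesis starts from cytosolic acetyl-CoA, which acetyl-CoA carboxylase and fatty acid synthase build into palmitate, and elongases and desaturases then lengthen and unsaturate the chain. Cholesterol is made from the same acetyl-CoA through mevalonate, isoprenoid diphosphates, squalene and a series of sterols. The transcription factors SREBP1 (from Srebf1) and SREBP2 (from Srebf2) drive both branches when SCAP carries them from the endoplasmic reticulum to the Golgi, and INSIG1 holds them back when sterols are plentiful. In lung, alveolar type 2 cells use these lipids to make surfactant, and alveolar macrophages clear it.

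Promoter sequence is shown for 4 of these genes: Idi1 and Msmo1, Insig1 among the regulators, and Hmgcs1, the entry to the mevalonate pathway. The 250 bases before the start site, from RefSeq on GRCm38.p6, are given 5′ to 3′ on the strand of the gene, with matches to the motifs searched in capitals.
Idi1 (chr13:8885356-8885605, plus strand): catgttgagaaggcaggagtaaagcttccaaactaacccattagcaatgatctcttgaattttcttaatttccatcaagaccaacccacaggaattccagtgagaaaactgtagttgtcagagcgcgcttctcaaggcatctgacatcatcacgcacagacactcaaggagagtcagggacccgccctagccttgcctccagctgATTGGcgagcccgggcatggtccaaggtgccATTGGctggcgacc
Msmo1 (chr8:64733579-64733828, minus strand): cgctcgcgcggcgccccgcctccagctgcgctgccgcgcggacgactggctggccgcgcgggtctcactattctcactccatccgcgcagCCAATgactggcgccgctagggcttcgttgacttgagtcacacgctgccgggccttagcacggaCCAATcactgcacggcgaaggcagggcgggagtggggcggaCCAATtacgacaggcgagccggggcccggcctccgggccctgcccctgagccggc
Insig1 (chr5:28071162-28071411, plus strand): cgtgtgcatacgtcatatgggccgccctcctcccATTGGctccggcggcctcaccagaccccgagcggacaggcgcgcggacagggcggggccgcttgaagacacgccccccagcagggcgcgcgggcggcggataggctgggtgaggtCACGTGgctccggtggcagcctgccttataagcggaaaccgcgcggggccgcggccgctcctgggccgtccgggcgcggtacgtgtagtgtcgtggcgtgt
Hmgcs1 (chr13:119690101-119690350, plus strand): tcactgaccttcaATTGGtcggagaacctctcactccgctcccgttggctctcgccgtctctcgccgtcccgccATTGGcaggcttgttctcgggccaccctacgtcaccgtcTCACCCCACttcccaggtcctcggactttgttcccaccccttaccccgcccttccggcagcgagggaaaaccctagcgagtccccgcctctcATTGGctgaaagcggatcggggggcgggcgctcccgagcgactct
The motifs searched on both strands were the CCAAT box, which reads ATTGG on the other strand, the E-box CACGTG, and a sterol regulatory element, TCACNCCAC. None of these motifs contains another. Idi1 held a pair of CCAAT boxes close to the start site, and Msmo1 and Hmgcs1 held 3 each. Insig1 held a CCAAT box and the E-box. Of the 36 genes, 30 had a promoter entry (Scd1, Scd2, Fads1, Fdps, Fdft1 and Sqle had none), and 24 of the 30 (80.0%) held CCAAT against 37.5% of the 27025 genes with an entry. CACGTG was found in 6 of the 30 against 6.86% of all genes, and TCACNCCAC in 1 of the 30 (3.33%, Hmgcs1) against 1.22%. A gene counted once if any of its entries held the motif, and an entry can begin at a transcript start inside the gene, as that of Acoxl does. These matches describe letters in a window and are not measured binding sites.

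The deposited values are RPKM, in which reads are scaled by the length of the gene and the size of the library, so that levels of different genes can be compared per length. Whole reads recovered from them totalled 7790575 to 32153698 in 14 libraries, but 604134 in WT-Bleo replicate 6 and 1234594 in KO-Bleo replicate 15, called the shallow libraries here. The synthesis genes had 6 to 2229 reads in WT-Bleo replicate 6, 20 to 7274 in KO-Bleo replicate 15 and at least 71 elsewhere. Lung markers were present in every library, with Sftpc, a surfactant protein gene, at 9347 to 19466 RPKM. A WT-Sal library held 5 to 17 reads of Il31ra and a WT-Bleo library 0 to 13, against 2 to 3 for KO-Sal libraries and 2 to 9 for those of KO-Bleo, which is too few to check the labels, and its value covers the whole gene and not the deleted exons alone. All 13 listed adipocyte markers were highest of the 16 libraries in KO-Sal replicate 10, at 1.65 to 17.7 times the mean of the other 3 KO-Sal libraries, and their summed level was 1391 RPKM there against 195 to 212 RPKM in those 3. Counts of synthesis genes at an adjusted p under 0.05 by limma, and the fold changes of those named in comparisons that involve KO-Sal, are given with and without that library.

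The most abundant of the synthesis genes by level over all 16 libraries was Scd1, the stearoyl-CoA desaturase, with a mean of 786 RPKM. It was followed by the elongase Elovl1 at 177 RPKM, by Scd2 at 146 RPKM and by the elongase Elovl5 at 106 RPKM. Within the other roles the highest means were those of Acly (68.0 RPKM), Fasn (53.3 RPKM), Hmgcs1 (52.6 RPKM), Insig1 (41.5 RPKM), Msmo1 (36.3 RPKM) and Gpam (29.2 RPKM). The lowest were Acacb at 2.66 RPKM, Elovl6 at 5.59 RPKM and Lss at 5.97 RPKM. Fdps shares 1124 exonic bases with Gm43738 on its own strand. On the opposite strand, Scap shares 985 with 5830462I19Rik, Fdft1 774 with Ctsb, Hmgcs1 557 with Gm48342 and Acss2 395 with Gss. The other overlaps found were of at most 381 bases. No source used here says how reads in such overlaps were counted, and the values of the genes concerned are uncertain to that extent.

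The question of the comparison of WT-Bleo with WT-Sal was how bleomycin changed these genes in wildtype lung. Acoxl fell the most, and genes from several steps of both branches fell with it, among them Acly, Acaca, Gpam, Idi1, Msmo1 and Sc5d, together with the regulators Srebf2 and Insig1. Other genes of the same pathways rose, led by Scd1. In all, 17 of the 36 were called at an adjusted p under 0.05 by limma, 7 higher and 10 lower, where 30.9% of all genes were called (18.6% higher, 12.3% lower). The median log2 fold change was -0.03 over the 36 and 0.01 over all genes. Under the thresholds of the study (unadjusted p under 0.05 and a change of at least 1.5-fold) 4 of the 36 were called, where 11.1% of all genes were.

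**Figure D1:**
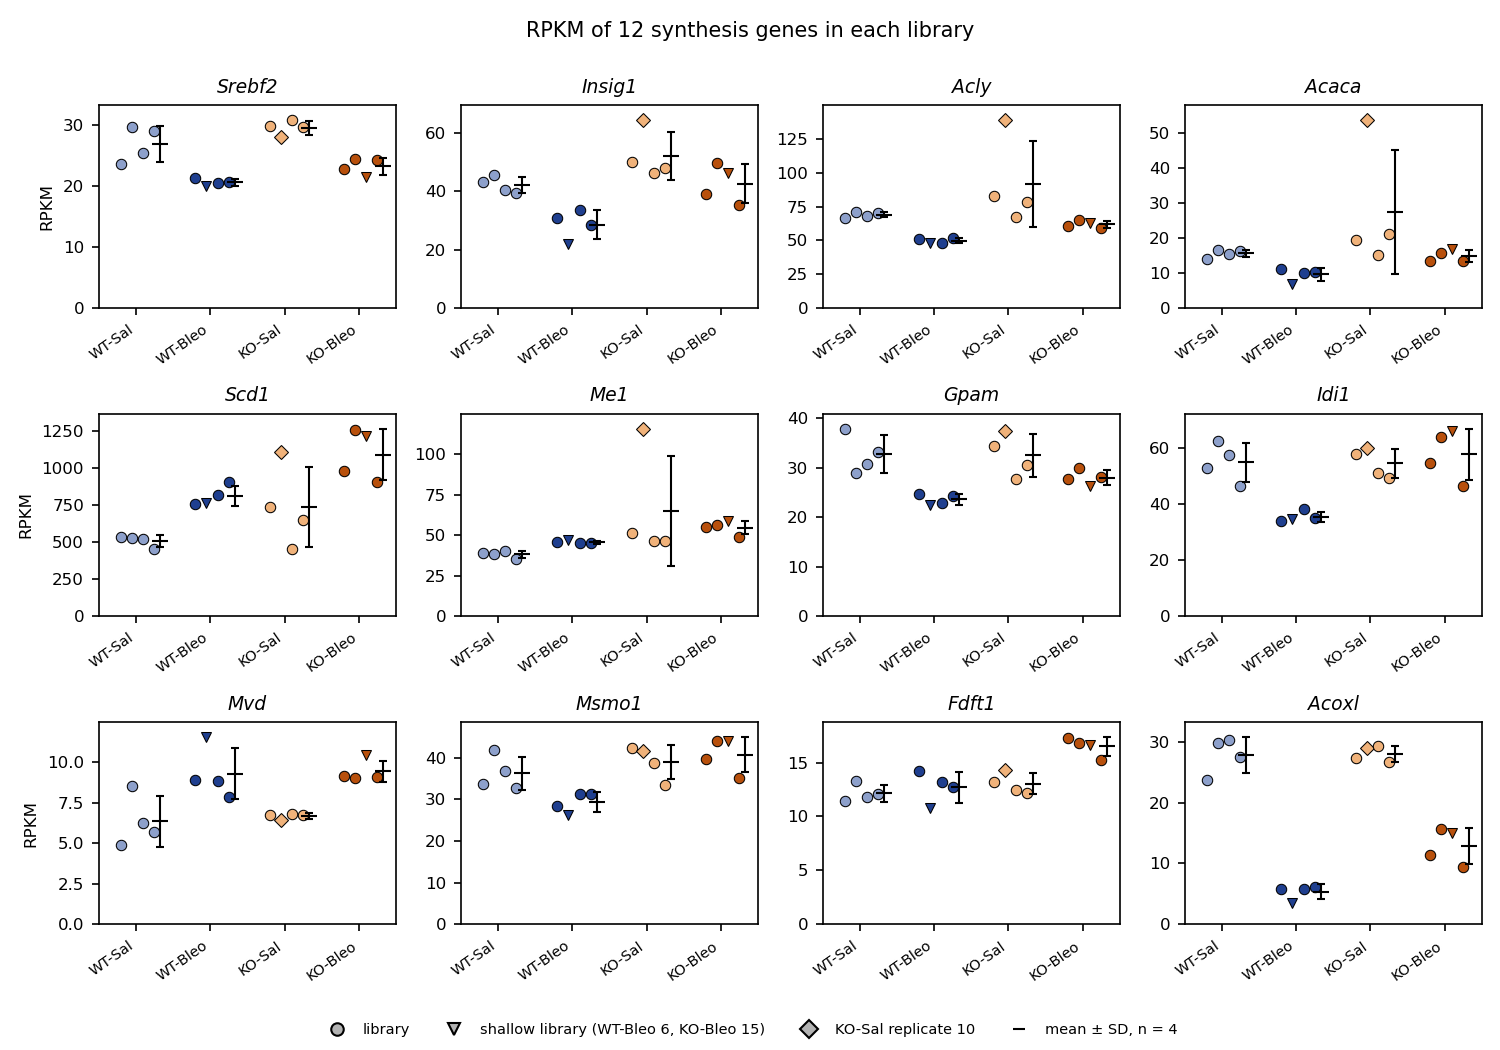
RPKM (vertical axes, from 0) of 12 synthesis genes in the 16 libraries. Each point is a library, triangles mark the shallow libraries, diamonds mark KO-Sal replicate 10, and bars give the mean ± SD of the 4 libraries of a group. Acoxl lies between 3.47 and 6.13 RPKM in WT-Bleo and between 23.8 and 30.3 RPKM in WT-Sal, with KO-Bleo between them, and KO-Sal replicate 10 stands above all other libraries for Acly, Acaca and Me1.

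Of the regulators, Srebf2 was 23.5, 29.7, 25.4 and 29.0 RPKM in WT-Sal replicates 1 to 4 and 21.3, 19.9, 20.4 and 20.6 RPKM in WT-Bleo replicates 5 to 8. Every WT-Bleo library lay below every WT-Sal library (log2 fold change -0.37 ± 0.08 SE, adjusted p = 0.00595). Insig1, itself a target of the SREBPs, had 43.2, 45.8, 40.4 and 39.6 RPKM under saline and 30.7, 21.9, 33.6 and 28.3 RPKM under bleomycin. The groups again did not overlap, and the shallow replicate 6 was lowest (log2 fold change -0.56 ± 0.12 SE, adjusted p = 0.00543). Scap was 11.97, 13.9, 12.01 and 12.5 RPKM in WT-Sal and 15.8, 15.4, 13.9 and 15.4 RPKM in WT-Bleo, with the lowest WT-Bleo library at the level of the highest WT-Sal library. It rose by 0.25 on the log2 scale (adjusted p = 0.0244). For Srebf1 the values were 16.01, 18.5, 15.3 and 17.2 RPKM and 17.5, 18.2, 16.2 and 15.9 RPKM, and the groups overlapped throughout (log2 fold change 0.02 ± 0.07 SE, adjusted p = 0.890, 95% interval -0.15 to 0.18).

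On the fatty acid side, Acly, which cleaves citrate to cytosolic acetyl-CoA, was 66.6, 70.7, 68.3 and 70.4 RPKM in WT-Sal and 50.9, 48.2, 47.9 and 51.5 RPKM in WT-Bleo. The groups lay well apart (log2 fold change -0.47 ± 0.05 SE, adjusted p = 1.04e-04). Acaca, the carboxylase that makes malonyl-CoA for synthesis, was 14.02, 16.5, 15.4 and 16.2 RPKM and then 11.1, 6.78, 9.97 and 10.3 RPKM, without overlap (log2 fold change -0.67 ± 0.13 SE, adjusted p = 0.00390). Gpam, the acyltransferase that starts glycerolipid synthesis, was 37.9, 29.0, 30.7 and 33.3 RPKM under saline against 24.7, 22.5, 22.8 and 24.4 RPKM under bleomycin. It too fell in every library of WT-Bleo relative to every library of WT-Sal (log2 fold change -0.45 ± 0.08 SE, adjusted p = 0.00275). Fads1, a desaturase of polyunsaturated fatty acids, fell from 43.6, 49.8, 44.5 and 44.6 RPKM to 37.5, 38.3, 38.9 and 38.1 RPKM (log2 fold change -0.25 ± 0.06 SE, adjusted p = 0.00797), with WT-Sal replicate 2 above the others of its group. Fasn, the synthase itself, was 41.3, 47.1, 45.2 and 47.8 RPKM and 38.1, 45.6, 31.0 and 37.1 RPKM, and its groups overlapped through replicate 6 alone (log2 fold change -0.26 ± 0.10 SE, adjusted p = 0.0883).

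The fatty acid genes that rose were the desaturases Scd1 and Scd2, the elongase Elovl1 and Me1, the malic enzyme that supplies NADPH. Scd1 was 534, 528, 517 and 450.3 RPKM in WT-Sal and 755, 763, 819 and 904 RPKM in WT-Bleo, a change from the most abundant level of the list to a still higher one with no overlap (log2 fold change 0.67 ± 0.08 SE, adjusted p = 1.96e-04). Scd2 was 137, 131, 118 and 128 RPKM against 151, 172, 155 and 153 RPKM (log2 fold change 0.29 ± 0.07 SE, adjusted p = 0.00751). Me1 was 39.1, 38.2, 40.3 and 35.3 RPKM against 45.8, 46.7, 45.1 and 44.9 RPKM (log2 fold change 0.25 ± 0.05 SE, adjusted p = 0.00691). The groups did not overlap for either gene. Elovl1, which lengthens very long saturated chains, was 136, 152, 146 and 153 RPKM and 158, 163, 178 and 188 RPKM, with the lowest WT-Bleo value just above the highest WT-Sal value (log2 fold change 0.22 ± 0.07 SE, adjusted p = 0.0352). Of the 15 fatty acid genes, 4 rose, 4 fell and 7 were not called, where 18.6% of all genes were called higher and 12.3% lower.

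On the cholesterol side, Idi1, the isomerase of isopentenyl diphosphate, showed the largest fall. It was 52.7, 62.6, 57.6 and 46.5 RPKM in WT-Sal and 33.9, 34.6, 38.1 and 34.8 RPKM in WT-Bleo, where the 4 libraries lay within a narrow range below the saline group (log2 fold change -0.61 ± 0.09 SE, adjusted p = 6.88e-04). Msmo1, a methylsterol oxidase, was 33.7, 41.7, 36.7 and 32.7 RPKM and 28.5, 26.3, 31.3 and 31.2 RPKM, a small gap without overlap (log2 fold change -0.29 ± 0.09 SE, adjusted p = 0.0308). Sc5d, a sterol desaturase near the end of the pathway, was 23.1, 25.9, 22.0 and 23.2 RPKM and 19.5, 16.2, 20.1 and 19.3 RPKM, also without overlap (log2 fold change -0.31 ± 0.08 SE, adjusted p = 0.0155). In the other direction, Ebp, the sterol isomerase, was 18.3, 16.5, 18.2 and 17.7 RPKM in WT-Sal and 23.2, 27.5, 22.8 and 20.4 RPKM in WT-Bleo, again with no overlap (log2 fold change 0.39 ± 0.09 SE, adjusted p = 0.00769). Mvd, the mevalonate diphosphate decarboxylase, was 4.89, 8.51, 6.26 and 5.71 RPKM and 8.91, 11.5, 8.81 and 7.86 RPKM (log2 fold change 0.50 ± 0.15 SE, adjusted p = 0.0359), and WT-Sal replicate 2 reached into the WT-Bleo range. Hmgcs1, the synthase that opens the pathway, stood at 44.9, 57.9, 48.1 and 47.4 RPKM and 48.1, 48.6, 49.9 and 50.5 RPKM, with no difference detected (log2 fold change -0.0023 ± 0.08 SE, adjusted p = 0.985, 95% interval -0.17 to 0.17). Of the 16 mevalonate and sterol genes, 2 rose, 3 fell and 11 were not called, where 18.6% of all genes were called higher and 12.3% lower.

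Acoxl stood apart from every other gene of the list. It was 23.8, 29.7, 30.3 and 27.4 RPKM in WT-Sal and 5.75, 3.47, 5.87 and 6.13 RPKM in WT-Bleo, where replicate 6 rested on 6 reads. The fall was larger than in any of the other 35 genes (log2 fold change -2.21 ± 0.15 SE, adjusted p = 7.49e-06). Leaving out each of the 8 libraries in turn kept 13 of the 17 calls. The calls of Mvd (adjusted p up to 0.0972 without WT-Sal replicate 1, and lost without WT-Sal replicates 3 or 4 or WT-Bleo replicates 5 or 7), Scap (up to 0.0666, without WT-Sal replicates 1, 3 or 4 or WT-Bleo replicates 5 or 8), Elovl1 (up to 0.0951, without any 1 of the WT-Sal libraries or WT-Bleo replicates 7 or 8) and Msmo1 (up to 0.0789, without WT-Sal replicates 2 or 3 or WT-Bleo replicate 5) were lost. With median-of-ratios scaling, Scap (adjusted p = 0.0530) and Elovl1 (0.0906) were also no longer called, the share of higher genes among all called genes went from 60.1% to 49.8%, and the 36 genes gave 5 higher and 10 lower. A spread shared by all 4 groups ended the calls of Me1 (0.365), Elovl1 (0.0643) and Acaca (0.0603). That spread takes in KO-Sal replicate 10, where Me1 was 116 RPKM and Acaca 53.6 RPKM, and it was not fitted without that library.

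Markers of cell types were compared in the same groups, where 18.6% of all genes were called higher and 12.3% lower. Of 12 markers of alveolar type 2 cells, 9 fell in WT-Bleo against WT-Sal and none rose, while the synthesis genes moved both ways. The summed level of these 12, mostly Sftpc, was 25303 to 29168 RPKM in WT-Sal and 16458 to 18636 RPKM in WT-Bleo. Of 9 alveolar macrophage markers, 5 fell and 1 rose, with sums of 696 to 851 RPKM and 556 to 653 RPKM. Of 6 markers of lipid-associated macrophages, 5 rose, with sums of 500 to 525 RPKM and 1613 to 1820 RPKM. Of 13 adipocyte markers, 4 fell and 0 rose (median log2 fold change -0.53), with overlapping sums of 125 to 170 RPKM and 109 to 179 RPKM. The part of these cell types in the changes of the synthesis genes was not tested.

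Among 29 further genes of the same pathways, 3 rose and 4 fell in wildtype lung, where 18.6% of all genes were called higher and 12.3% lower. The rises were in Abca1 (log2 fold change 1.04, adjusted p = 6.94e-05) and Abcg1 (0.25, adjusted p = 0.0243), exporters of cholesterol, and in Fads3 (0.36, adjusted p = 0.00108), a relative of the desaturases. Among the falls were those of Thrsp and its relative Mid1ip1, which act on fatty acid synthesis (-0.77, adjusted p = 0.0376 and -0.45, adjusted p = 0.00266), and Lbr, which also acts as a sterol reductase (-0.48, adjusted p = 7.81e-04). The call of Abcg1 was lost without WT-Sal replicates 2 or 3 or WT-Bleo replicates 7 or 8 (adjusted p up to 0.0694) and with median-of-ratios scaling (0.0617), and that of Thrsp without WT-Sal replicates 1, 3 or 4 or WT-Bleo replicates 7 or 8 (up to 0.0968) and with a shared spread (0.286).

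**Figure D2:**
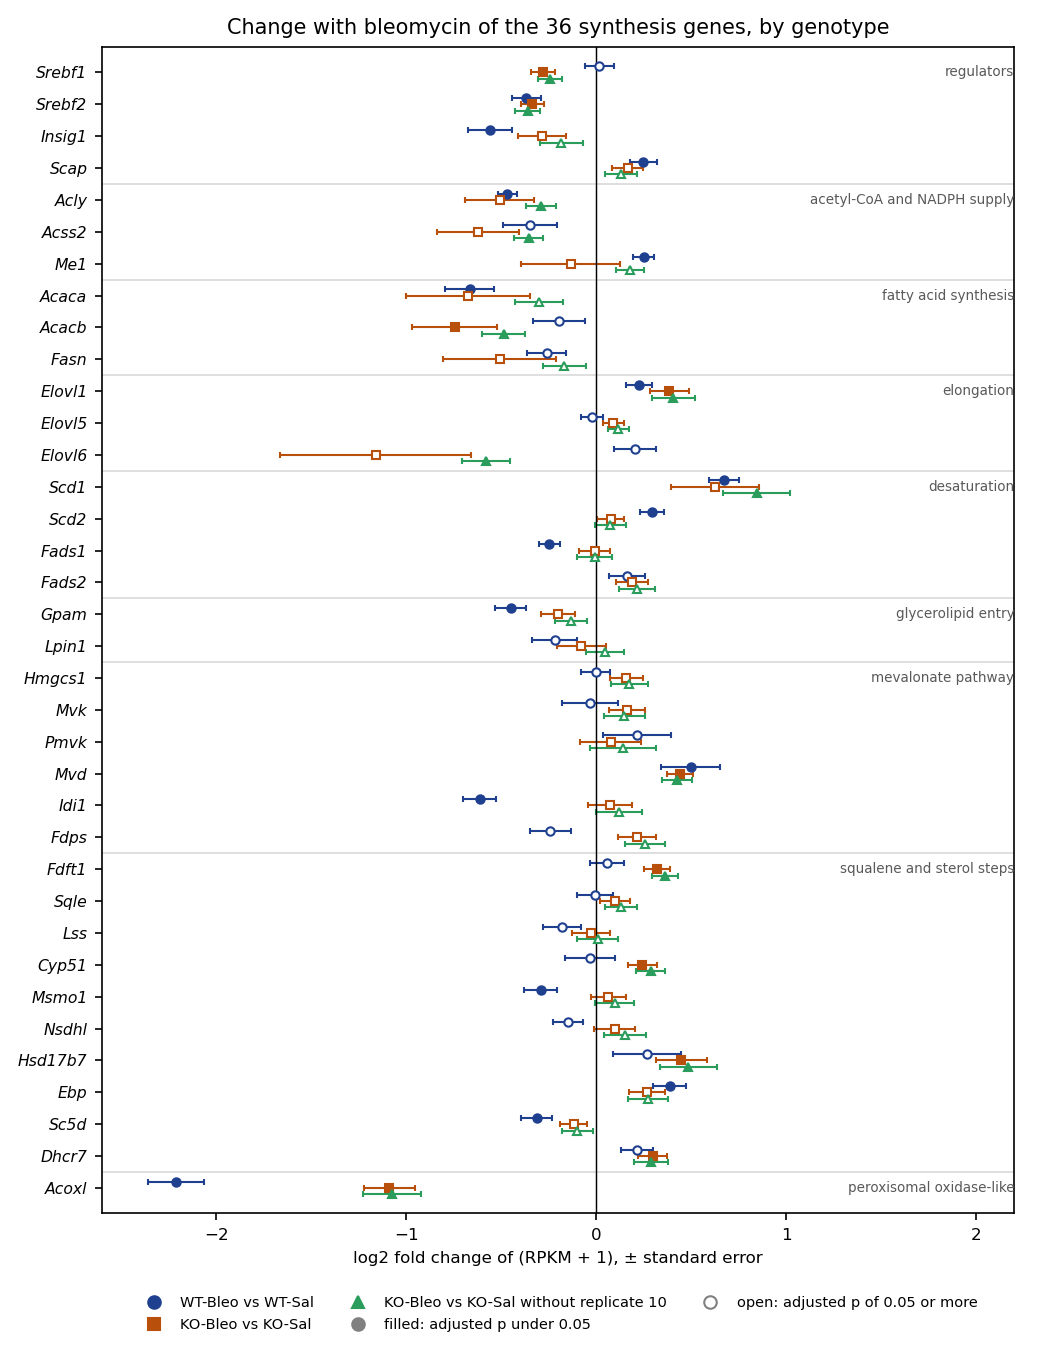
Log2 fold change with bleomycin of the 36 synthesis genes (horizontal axis, on the scale of RPKM + 1, bars show the standard error), grouped by role, in wildtype lungs (circles), in knockout lungs (squares) and in knockout lungs without KO-Sal replicate 10 (triangles). Filled symbols are called at an adjusted p under 0.05. Acoxl is the leftmost circle at -2.21 and its square lies at -1.09, and Idi1 lies at -0.61 in wildtype and 0.07 in knockout lungs.

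The comparison of KO-Bleo with KO-Sal asked the same question in knockout lung. On the cholesterol side 5 of the 16 mevalonate and sterol genes rose (Mvd, Fdft1, Cyp51, Hsd17b7 and Dhcr7) and 0 fell by limma. At an unadjusted p under 0.05, 6 of the 16 were higher and 0 lower (19.0% and 18.1% of all genes), and limma-voom on whole reads called 5 higher and 0 lower (29.4% of all genes in either direction). Elovl1 rose on the fatty acid side, and Srebf1, Srebf2, Acacb and Acoxl fell. Over the 36 genes, 10 were called, 6 higher and 4 lower, where 23.6% of all genes were called (13.2% higher, 10.4% lower). Without KO-Sal replicate 10, 14 were called, 7 higher and 7 lower, where 21.3% of all genes were called. The thresholds of the study gave 5 of the 36 (1 higher and 4 lower) and 7.45% of all genes. Of these 5, Scd1 and Acoxl still passed without KO-Sal replicate 10. Acacb, Acss2 and Elovl6 then fell short of the fold limit (log2 fold changes -0.486, -0.356 and -0.580). The median log2 fold change of the 36 was 0.07 with and 0.12 without that library, and -0.01 and -0.02 over all genes.

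Srebf2 was 29.8, 28.004, 30.7 and 29.7 RPKM in KO-Sal replicates 9 to 12 and 22.8, 24.4, 21.4 and 24.3 RPKM in KO-Bleo replicates 13 to 16. The groups did not overlap (log2 fold change -0.34 ± 0.06 SE, adjusted p = 0.00341 with and log2 fold change -0.36 ± 0.07 SE, adjusted p = 0.00514 without replicate 10). Srebf1 was 21.3, 22.7, 19.6 and 20.1 RPKM and 16.3, 17.4, 17.8 and 16.7 RPKM, also without overlap (log2 fold change -0.28 ± 0.06 SE, adjusted p = 0.0103 with and log2 fold change -0.24 ± 0.06 SE, adjusted p = 0.0263 without replicate 10). Insig1 was 50.2, 64.4, 46.5 and 48.0 RPKM and 39.2, 49.9, 46.5 and 35.2 RPKM, highest in replicate 10 and overlapping between groups (log2 fold change -0.29 ± 0.13 SE, adjusted p = 0.130 with and log2 fold change -0.18 ± 0.11 SE, adjusted p = 0.282 without it). Scap was 14.3, 12.7, 13.98 and 14.1 RPKM and 14.8, 14.2, 18.1 and 15.4 RPKM, with KO-Bleo replicate 15 highest (log2 fold change 0.17 ± 0.08 SE, adjusted p = 0.166 with and log2 fold change 0.13 ± 0.09 SE, adjusted p = 0.324 without replicate 10).

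Of the sterol genes, Mvd was 6.74, 6.42, 6.77 and 6.74 RPKM in KO-Sal, a tight group, and 9.13, 9.0, 10.4 and 9.10 RPKM in KO-Bleo. The rise had the smallest adjusted p of the cholesterol side (log2 fold change 0.44 ± 0.07 SE, adjusted p = 0.00164). Fdft1, the squalene synthase, was 13.2, 14.3, 12.4 and 12.2 RPKM and 17.3, 16.8, 16.6 and 15.3 RPKM, with every KO-Bleo library higher (log2 fold change 0.32 ± 0.07 SE, adjusted p = 0.00848). Dhcr7, the reductase that yields cholesterol, was 6.38, 5.61, 5.23 and 5.75 RPKM and 7.45, 6.87, 7.76 and 7.02 RPKM (log2 fold change 0.30 ± 0.08 SE, adjusted p = 0.0209). Hsd17b7, a sterol ketoreductase, was 5.19, 5.57, 4.37 and 5.22 RPKM and 7.02, 6.74, 9.91 and 5.92 RPKM, the highest being the shallow replicate 15 (log2 fold change 0.45 ± 0.13 SE, adjusted p = 0.0365). Cyp51, the lanosterol demethylase, was 15.1, 15.99, 12.99 and 13.8 RPKM and 17.97, 18.2, 16.9 and 15.9 RPKM, and replicate 10 just reached the KO-Bleo range (log2 fold change 0.24 ± 0.08 SE, adjusted p = 0.0446). Without replicate 10, the log2 fold changes of Mvd, Fdft1, Dhcr7, Hsd17b7 and Cyp51 were 0.42, 0.36, 0.29, 0.48 and 0.29, and all 5 were called, at adjusted p from 0.00533 to 0.0471. Idi1 was 57.8, 60.1, 50.9 and 49.3 RPKM in KO-Sal and 54.5, 64.0, 66.1 and 46.3 RPKM in KO-Bleo. Its groups overlapped (log2 fold change 0.07 ± 0.11 SE, adjusted p = 0.686, 95% interval -0.18 to 0.33), and without replicate 10 it was also not called (log2 fold change 0.12 ± 0.12 SE, adjusted p = 0.527).

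On the fatty acid side, Elovl1 was 194, 176, 165 and 144 RPKM and 214, 217, 253 and 201 RPKM, and it rose without overlap (log2 fold change 0.38 ± 0.10 SE, adjusted p = 0.0207 with and log2 fold change 0.41 ± 0.11 SE, adjusted p = 0.0341 without replicate 10). Acacb, the carboxylase of the mitochondrial surface, was 3.75, 7.83, 2.96 and 3.23 RPKM and 1.84, 2.42, 1.91 and 2.15 RPKM. It fell with and without replicate 10, by less without it (log2 fold change -0.75 ± 0.22 SE, adjusted p = 0.0361 and log2 fold change -0.49 ± 0.11 SE, adjusted p = 0.0159). Scd1 was 737, 1104, 453 and 649 RPKM and 976, 1257, 1218 and 906 RPKM, overlapping through replicate 10 alone (log2 fold change 0.62 ± 0.23 SE, adjusted p = 0.0772), and it rose once that library was left out (log2 fold change 0.84 ± 0.18 SE, adjusted p = 0.0107). Acly was 82.7, 139, 67.4 and 78.2 RPKM and 60.4, 64.7, 62.9 and 59.0 RPKM, without overlap either way, and was called lower only without replicate 10 (log2 fold change -0.51 ± 0.18 SE, adjusted p = 0.0688 with it, log2 fold change -0.29 ± 0.08 SE, adjusted p = 0.0297 without it). Acss2, which makes acetyl-CoA from acetate, and Elovl6, the elongase of palmitate, were likewise called lower without replicate 10 only (log2 fold change -0.36 ± 0.07 SE, adjusted p = 0.0101 and log2 fold change -0.58 ± 0.13 SE, adjusted p = 0.0116). Their levels in KO-Sal were 13.8, 28.004, 12.5 and 12.4 RPKM for Acss2 and 6.72, 32.4, 4.99 and 5.49 RPKM for Elovl6, and in KO-Bleo 9.91, 10.2, 9.15 and 10.3 RPKM and 3.06, 3.53, 4.22 and 3.19 RPKM. The difference of Me1 changed sign when replicate 10 was left out (log2 fold change -0.13 ± 0.26 SE, adjusted p = 0.746 with it, log2 fold change 0.18 ± 0.08 SE, adjusted p = 0.133 without it).

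Acoxl was 27.3, 29.0, 29.2 and 26.6 RPKM in KO-Sal and 11.3, 15.7, 15. and 9.48 RPKM in KO-Bleo. It fell in knockout lung as well, and the KO-Bleo libraries lay between both saline groups and WT-Bleo (log2 fold change -1.09 ± 0.13 SE, adjusted p = 4.08e-04 with and log2 fold change -1.07 ± 0.15 SE, adjusted p = 0.00170 without replicate 10). Leaving out each library in turn kept 6 of the 10 calls. Those of Cyp51 (adjusted p up to 0.113, without KO-Sal replicates 9, 11 or 12 or KO-Bleo replicates 13, 14 or 15), Hsd17b7 (up to 0.0934, without KO-Sal replicates 9, 11 or 12 or KO-Bleo replicates 13 or 14), Dhcr7 (up to 0.0614, without KO-Sal replicate 11 or KO-Bleo replicate 13) and Acacb (up to 0.0858, without KO-Sal replicate 9 or any 1 of the KO-Bleo libraries) were lost. The call of Acacb was also lost with limma-voom (0.0762), that of Cyp51 with median-of-ratios scaling (0.0673) and with a shared spread (0.131), and that of Hsd17b7 with a shared spread (0.0650). Of the alveolar type 2 markers, 3 rose and 3 fell in this comparison, where 13.2% of all genes were called higher and 10.4% lower. The sums of these markers overlapped at 22795 to 27240 RPKM in KO-Sal and 22928 to 25549 RPKM in KO-Bleo. Of the lipid-associated macrophage markers 5 of 6 rose, with sums of 455 to 516 RPKM and 1283 to 1958 RPKM. Of the 9 alveolar macrophage markers, 2 rose and 4 fell. Their sums overlapped (KO-Sal 539 to 718 RPKM, KO-Bleo 568 to 1003 RPKM). Chil3 alone gave 297 to 449 RPKM and 363 to 787 RPKM of these sums. By the mean log2 of RPKM plus 1 over the 9, every KO-Bleo library (4.18 to 4.54) lay below every KO-Sal library (4.80 to 5.10). Adipocyte markers summed to 102 to 162 RPKM in KO-Bleo, below every KO-Sal library, and 1 of 13 fell with replicate 10 and 7 of 13 without it, with 0 rising. The part of these cell types was not tested.

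Of the 29 further pathway genes, 4 rose and 6 fell in knockout lung, where 13.2% of all genes were called higher and 10.4% lower. Without replicate 10, 4 rose and 5 fell, where 21.3% of all genes were called in either direction. Abca1 (0.64, adjusted p = 1.64e-04) and Abcg1 (0.23, adjusted p = 0.0172) rose as log2 fold changes, as did Tm7sf2, a sterol reductase (0.50, adjusted p = 0.0160), and Mbtps2, a protease that releases the SREBPs (0.28, adjusted p = 0.0164). Among those that fell were Mid1ip1 (-0.44, adjusted p = 0.00202), Lbr (-0.25, adjusted p = 0.00927), Thrsp (-2.44, adjusted p = 0.0291), Mlxipl, a carbohydrate-responsive transcription factor (-0.85, adjusted p = 0.0193), and Nr1h3, the liver X receptor alpha (-0.39, adjusted p = 0.0439). Thrsp was 19.7, 141, 15.9 and 17.04 RPKM in KO-Sal and 5.71, 6.40, 2.94 and 4.33 RPKM in KO-Bleo, and without replicate 10 its fall was log2 fold change -1.70 ± 0.20 SE, adjusted p = 6.61e-04. Its call was lost without KO-Bleo replicates 13, 15 or 16 (adjusted p up to 0.0692) and with limma-voom (0.184). The call of Nr1h3 was lost without any 1 of KO-Sal replicates 9 to 12 or KO-Bleo replicates 13 or 14 (up to 0.0987) and with a shared spread (0.0536), its fold change was -0.25 without KO-Bleo replicate 15, and the call of Abcg1 was lost without KO-Sal replicate 9 (0.0595).

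The comparison of KO-Bleo with WT-Bleo asked how the genotypes differed under bleomycin. All but 5 of the 36 genes had a higher mean log2 level in KO-Bleo, and in 21 of them every KO-Bleo library lay above every WT-Bleo library, where 3.72% of all genes did so. None of the 36 had every KO-Bleo library below WT-Bleo, where 4.76% of all genes did. Idi1 alone was called by limma, where 0.214% of all genes were called (0.122% higher, 0.0916% lower). At an unadjusted p under 0.05, 23 were higher and 0 lower, against 4.79% of all genes higher and 6.36% lower. The median log2 fold change was 0.29 over the 36 and 0.01 over all genes. With limma-voom on whole reads, 17 were called and all 17 were higher, where 3.55% of all genes were called in either direction. The thresholds of the study gave 3 of the 36 and 1.26% of all genes.

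**Figure D3:**
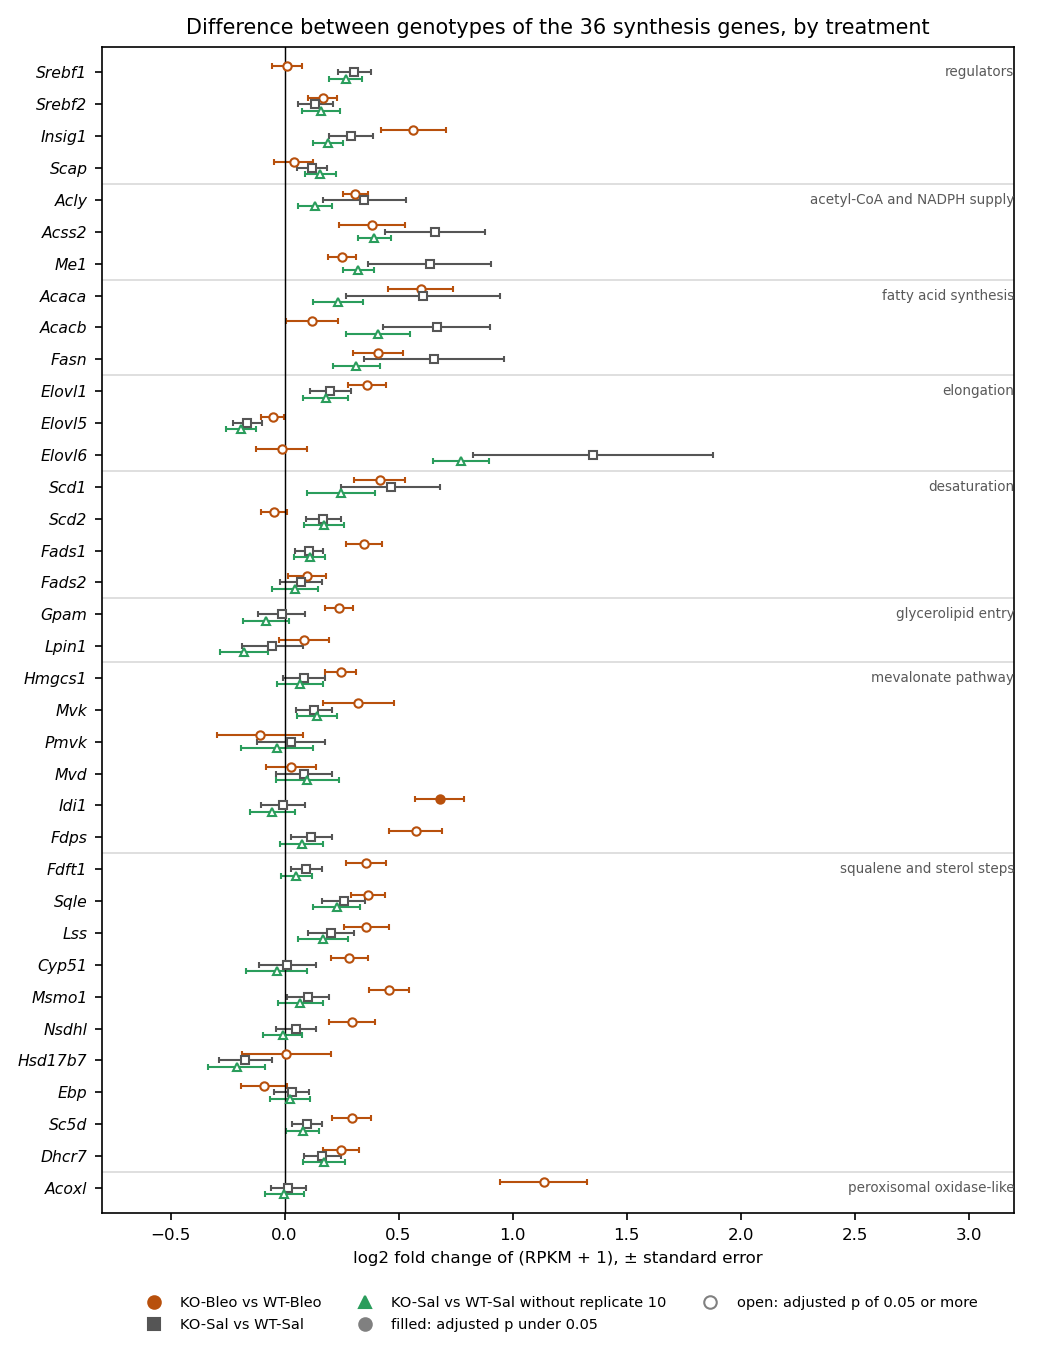
Log2 fold change of knockout over wildtype for the 36 synthesis genes (horizontal axis, on the scale of RPKM + 1, bars show the standard error), grouped by role, under bleomycin (circles), under saline (squares) and under saline without KO-Sal replicate 10 (triangles). Filled symbols are called at an adjusted p under 0.05. Under bleomycin 31 of 36 circles lie above 0, and Idi1 at 0.68 is the only filled symbol.

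Idi1 lay at 33.9 to 38.1 RPKM in WT-Bleo and at 46.3 to 66.1 RPKM in KO-Bleo (log2 fold change 0.68 ± 0.11 SE, adjusted p = 0.0488). That call was lost without any 1 of the WT-Bleo libraries or KO-Bleo replicates 13, 14 or 15 (adjusted p up to 0.186), without both shallow libraries (0.0519), and with a pseudocount of 0.1 (0.0533) or 5 (0.0511). Without WT-Bleo replicates 5 or 7 or KO-Bleo replicates 13 or 14, 0 of all 16380 genes were called. Without WT-Bleo replicate 8, 3 were called higher and 1 lower. Without KO-Bleo replicate 15 these counts were 3 and 5, and without WT-Bleo replicate 6 they were 19 and 19. The fold change of Idi1 stayed between 0.61 and 0.78 on the log2 scale when single libraries were left out, and limma-voom gave it an adjusted p of 0.00372. Acoxl lay at 3.47 to 6.13 RPKM in WT-Bleo and at 9.48 to 15.7 RPKM in KO-Bleo, the largest fold change of the list (log2 fold change 1.14 ± 0.19 SE, adjusted p = 0.0579). It was called with limma-voom (0.00532), with genes of a mean value under 1 left out (0.0402), with a shared spread (0.00187), without both shallow libraries (0.0406) and without KO-Bleo replicate 16 (0.0472).

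Acly, at 47.9 to 51.5 RPKM against 59.0 to 64.7 RPKM, and Msmo1, at 26.3 to 31.3 RPKM against 35.2 to 44.1 RPKM, came next by p (log2 fold change 0.31 ± 0.05 SE, adjusted p = 0.0623 and log2 fold change 0.46 ± 0.09 SE, adjusted p = 0.0865). Neither pair of groups overlapped. Fdps, the farnesyl diphosphate synthase, was 34.3, 24.9, 31.8 and 31.6 RPKM in WT-Bleo and 43.0, 48.6, 53.2 and 39.7 RPKM in KO-Bleo, and Sqle, the squalene epoxidase, was 21.9, 19.3, 22.4 and 19.8 RPKM and 27.7, 29.6, 26.2 and 25.002 RPKM. Both were higher in every knockout library, and neither passed the threshold (log2 fold change 0.57 ± 0.12 SE, adjusted p = 0.0888 and log2 fold change 0.36 ± 0.08 SE, adjusted p = 0.0993). Insig1, Srebf2, Hmgcs1, Scd1, Fasn, Gpam and Elovl1 also had no overlap, with log2 fold changes from 0.17 for Srebf2 to 0.56 for Insig1 and adjusted p from 0.133 to 0.358. Srebf1 and Scap, in contrast, showed no detectable difference (log2 fold change 0.01 ± 0.07 SE, adjusted p = 0.965, 95% interval -0.14 to 0.16, and log2 fold change 0.04 ± 0.09 SE, adjusted p = 0.875, 95% interval -0.15 to 0.23). The 5 genes with a lower mean log2 level in KO-Bleo were Elovl5, Elovl6, Scd2, Pmvk and Ebp, at log2 fold changes of -0.11 to -0.01. By role, 9 of 10 squalene and sterol genes and 5 of 6 mevalonate genes were on the higher side, as were all 3 of the acetyl-CoA and NADPH genes and all 3 of the fatty acid synthesis genes.

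Of the alveolar type 2 markers, 6 of 12 were also called, all 6 higher in the knockout libraries, where 0.122% of all genes were called higher. The median log2 fold change over the 12 markers was 0.41. Their summed levels did not overlap, at 16458 to 18636 RPKM in WT-Bleo and 22928 to 25549 RPKM in KO-Bleo. Those of the alveolar macrophage markers overlapped (556 to 653 RPKM and 568 to 1003 RPKM), as did those of the adipocyte markers (109 to 179 RPKM and 102 to 162 RPKM). Chil3 alone gave 415 to 474 RPKM and 363 to 787 RPKM of the macrophage sums. The mean log2 of RPKM plus 1 over the 9 macrophage markers did not overlap, at 3.40 to 4.08 in WT-Bleo and 4.18 to 4.54 in KO-Bleo. None of the 9 was called by limma. The part of these cell types in the difference between genotypes was not tested. Of the further pathway genes, Acat2, an acetyl-CoA acetyltransferase of the cytosol, was called higher among 29, at 10.4, 9.56, 9.45 and 8.97 RPKM in WT-Bleo and 12.9, 13.2, 14.04 and 14.04 RPKM in KO-Bleo (log2 fold change 0.46 ± 0.07 SE, adjusted p = 0.0488). Its call was lost without any 1 of the 8 libraries (adjusted p from 0.0534 to 0.186) and with a pseudocount of 0.1 (0.0510). Without WT-Bleo replicates 5 or 7 or KO-Bleo replicates 13 or 14, 0 of all genes were called.

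Under saline, the comparison of KO-Sal with WT-Sal gave 0 calls among the 36 by limma, where 0.0488% of all genes were called. Limma-voom also called 0, where it called 0.715% of all genes, and without KO-Sal replicate 10 limma again called 0, where 0.0488% of all genes were called. At an unadjusted p under 0.05, 9 of the 36 passed (8 higher and 1 lower), against 16.2% of all genes. The thresholds of the study gave 4 of the 36 and 0.861% of all genes. Of these 4, Acss2, Me1 and Acacb fell short of the fold limit without KO-Sal replicate 10 (log2 fold changes 0.394, 0.323 and 0.409). Of the 36 genes, 31 had a higher mean log2 level in KO-Sal. This count was 27 without KO-Sal replicate 10 and 27 with median-of-ratios scaling. The median log2 fold change was 0.12 over the 36 and 0.03 over all genes. The groups did not overlap in 5 genes, all higher in KO-Sal (Srebf1, Insig1, Acss2, Me1 and Elovl6), where 6.24% of all genes were higher and 3.42% lower without overlap. The summed levels of the adipocyte markers did not overlap either, with replicate 10 left out as well, at 125 to 170 RPKM in WT-Sal and 195 to 212 RPKM in the other 3 KO-Sal libraries. Their median log2 fold change was 1.06 with and 0.41 without replicate 10, and 0 of 13 were called either way. The part of fat tissue in these differences was not tested.

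The smallest p was that of Srebf1, at 15.3 to 18.5 RPKM in WT-Sal and 19.6 to 22.7 RPKM in KO-Sal (log2 fold change 0.31 ± 0.07 SE, adjusted p = 0.0821 with and log2 fold change 0.27 ± 0.07 SE, adjusted p = 0.134 without replicate 10). It was called without KO-Sal replicate 12 (adjusted p = 0.0495), where 534 of all 16380 genes were called higher and 188 lower. With every library in the fit, 3 of all genes were called higher and 5 lower. Insig1 followed, at 39.6 to 45.8 RPKM and 46.5 to 64.4 RPKM (log2 fold change 0.29 ± 0.10 SE, adjusted p = 0.176 and log2 fold change 0.19 ± 0.07 SE, adjusted p = 0.203). Acss2 was 9.15, 9.45, 9.32 and 10.5 RPKM in WT-Sal and reached 28.004 RPKM in replicate 10 (log2 fold change 0.66 ± 0.22 SE, adjusted p = 0.180 with and log2 fold change 0.39 ± 0.07 SE, adjusted p = 0.0956 without it). Acacb, at 1.83, 2.30, 1.86 and 3.13 RPKM in WT-Sal, had its highest value of 7.83 RPKM in replicate 10 as well (log2 fold change 0.67 ± 0.23 SE, adjusted p = 0.194 and log2 fold change 0.41 ± 0.14 SE, adjusted p = 0.191). Elovl6, at 2.67, 3.11, 3.56 and 2.41 RPKM in WT-Sal, was higher in all 4 KO-Sal libraries (log2 fold change 1.35 ± 0.53 SE, adjusted p = 0.257 and log2 fold change 0.77 ± 0.12 SE, adjusted p = 0.0704). Srebf2 and Scap differed by 0.14 and 0.12 on the log2 scale (adjusted p = 0.414 and 0.400), and by 0.16 each without replicate 10 (adjusted p = 0.364 and 0.288).

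KO-Sal replicate 10 was the highest of all 16 libraries for 10 of the 36 genes (Srebf1, Insig1, Acly, Acss2, Me1, Acaca, Acacb, Fasn, Elovl6 and Lpin1). Elovl6 was 5.65 times, Acaca 2.88 times, Fasn 2.58 times and Me1 2.40 times the mean of the other 3 KO-Sal libraries. Acacb, Acss2, Acly and Scd1 also stood at 1.801 to 2.363 times that mean. The 16 mevalonate and sterol genes stood at 0.951 to 1.20 times. The other 7 of the 15 fatty acid genes stood at 0.993 to 1.45 times. In this library 8 fatty acid genes and the adipocyte markers were high together, while the other fatty acid genes and the cholesterol genes lay nearer the level of their group. The part of fat tissue in these values was not tested beyond leaving the library out.

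**Figure D4:**
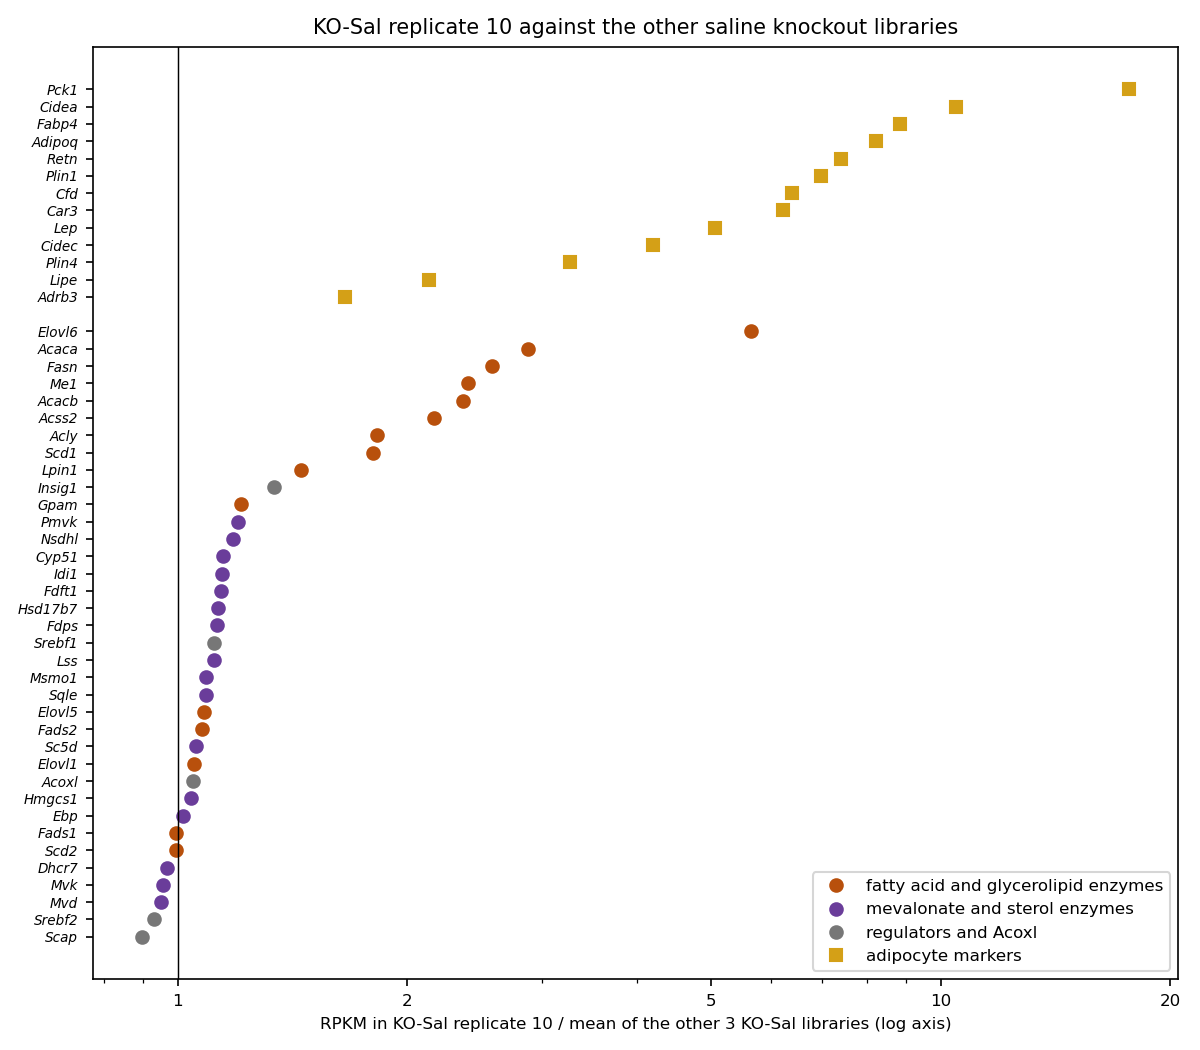
RPKM in KO-Sal replicate 10 divided by the mean of the other 3 KO-Sal libraries (horizontal log axis) for the 36 synthesis genes (circles, coloured by branch) and 13 adipocyte markers (squares). Fatty acid genes range from 0.993 to 5.65 times (Elovl6), mevalonate and sterol genes stay between 0.951 and 1.20 times, and adipocyte markers range from 1.65 to 17.7 times.

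The interaction over all 16 libraries tested whether the change with bleomycin differed between genotypes, as the knockout change minus the wildtype change. Acoxl was called among the 36, where 0.220% of all genes were called. The thresholds of the study gave 3 of the 36 and 2.06% of all genes. Its log2 fold change was -2.21 in wildtype and -1.09 in knockout lung, a difference of 1.12 (log2 fold change 1.12 ± 0.21 SE, adjusted p = 0.0397). That call was lost without KO-Sal replicate 10 (log2 fold change 1.14 ± 0.23 SE, adjusted p = 0.0606), without any 1 of 12 other libraries (adjusted p up to 0.105), which were all but WT-Bleo replicates 6 and 7 and KO-Bleo replicate 16, and without both shallow libraries (0.89, adjusted p = 0.0514). The difference stayed between 0.96 and 1.25 when single libraries were left out. Over all genes, those fits called 3 to 30 with a positive and 0 to 30 with a negative difference.

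Next by p were Idi1, which fell in wildtype lung and not detectably in knockout lung (log2 fold change 0.69 ± 0.15 SE, adjusted p = 0.0922), Srebf1 (log2 fold change -0.30 ± 0.10 SE, adjusted p = 0.287) and Fdps (log2 fold change 0.46 ± 0.15 SE, adjusted p = 0.314). Idi1 was called without KO-Bleo replicate 16 (0.78, adjusted p = 0.0318). Without KO-Sal replicate 10, none of these 3 was called (log2 fold change 0.73 ± 0.16 SE, adjusted p = 0.0783 for Idi1, log2 fold change -0.26 ± 0.10 SE, adjusted p = 0.382 for Srebf1 and log2 fold change 0.50 ± 0.16 SE, adjusted p = 0.311 for Fdps). Elovl6, also not called without that library, differed in the direction opposite to Idi1 (log2 fold change -0.79 ± 0.17 SE, adjusted p = 0.0783). Insig1 (log2 fold change 0.27 ± 0.18 SE, adjusted p = 0.585), Srebf2 (log2 fold change 0.03 ± 0.10 SE, adjusted p = 0.927, 95% interval -0.17 to 0.24) and Scap (log2 fold change -0.08 ± 0.11 SE, adjusted p = 0.798) showed no detectable difference in their change. Without replicate 10 their values were log2 fold change 0.38 ± 0.17 SE, adjusted p = 0.459 for Insig1, log2 fold change 0.01 ± 0.10 SE, adjusted p = 0.988 for Srebf2 and log2 fold change -0.12 ± 0.11 SE, adjusted p = 0.721 for Scap. On the cholesterol side 13 of 16 differences were positive, with a median of 0.19, against a median of -0.02 over all genes. On the fatty acid side 6 of 15 were positive, with a median of -0.04. Of the alveolar type 2 markers, 4 of 12 were called, all with a positive difference, where 0.220% of all genes were called in either direction.

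Of the 36 genes, Hmgcs1 and Idi1 lie on chromosome 13, as does Il31ra. Hmgcs1 lies 7.11 Mb from it (119690351 to 119708260 on GRCm38.p6) and Idi1 104 Mb from it (8885606 to 8892396). Hmgcs1 differed between genotypes by 0.08 under saline (adjusted p = 0.701, and 0.07 with adjusted p = 0.789 without replicate 10) and 0.25 under bleomycin (adjusted p = 0.201) on the log2 scale, neither past the threshold by limma. With limma-voom it was called under bleomycin (0.25, adjusted p = 0.0433), where its groups did not overlap, and not under saline (0.08, adjusted p = 0.688).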

How the data were processed

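Lung RNA of 16 libraries, 4 per group, was analysed from the table the authors deposited. The authors' table holds RPKM values, reads scaled by gene length and by library size. Neither the table nor the labels name this unit, and it was read from the values. The submitters' processing notes name bcl2fastq, CASAVA 1.8, TopHat, DESeq and the build mm10. No source used here gives the annotation, gene counter or strand setting. Groups came from the labels, all 16 columns were used and 0 were left out.

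Each comparison was fitted to the log2 of RPKM plus 1 over all 16380 genes with limma 3.58.1 in R 4.3.3 (trend and robust options) using only the libraries compared, and the interaction with all 16. Benjamini-Hochberg adjustment ran over all genes, with calls at values under 0.05. Log2 fold changes are positive where the group named first is higher, and adding 1 understates the change of low genes. Whole reads could be recovered for 16366 genes (99.91%, relative tolerance 6e-08) and served for depth and for limma-voom, an alternative. The other alternatives were pseudocounts of 0.1 and 5, a mean value of at least 1, median-of-ratios scaling, a spread shared by all groups, the study's thresholds (unadjusted p under 0.05 and at least 1.5-fold), and leaving out the shallow libraries or each library in turn. Leaving out KO-Sal replicate 10 together with both shallow libraries was chosen after seeing the data. The fit was tested on simulated data.

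Values are given for the members called in each comparison, at most 10 per direction, for the 4 with the smallest p where fewer were called, for the 4 regulators, for the member with the highest level in each role, and for further pathway genes by the same rule; Fdps, Sqle and the members named without KO-Sal replicate 10 were added after their values were seen. The members and lists were chosen with earlier results of these data known. Of 32 further pathway genes, 29 were listed in the table, and some of them are not reported here by name. Liver and skin marker lists were also fixed, and of them 2 of 4 skin markers rose and 1 fell in WT-Bleo against WT-Sal, 1 of 4 fell in KO-Bleo against KO-Sal, and the 1 listed liver marker was called in neither. Positions come from RefSeq for GRCm38.p6, the same build as mm10, and exon overlaps from GENCODE M21.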

Additional observations from a re-analysis of the deposited data

Results flagged for a closer look

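In each group of 4 libraries, a value was marked when the highest or lowest library lay far from the other 3 (Dixon's test at 95%), which chance alone does in about 1 of 20 groups. Of 144 combinations of a synthesis gene and a group, 12 were marked, 6 of them in KO-Sal replicate 10. In that library Elovl6 was 32.4 RPKM against 4.99 to 6.72 RPKM in the other 3 libraries of the group. Me1 was 116 RPKM against 46.4 to 51.5 RPKM, and Acaca was 53.6 RPKM against 15.02 to 21.2 RPKM. Acss2 was 28.004 RPKM against 12.4 to 13.8 RPKM, and Acacb was 7.83 RPKM against 2.96 to 3.75 RPKM. Mvd was low there, at 6.42 RPKM against 6.74 to 6.77 RPKM, a small gap in a tight group.

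The other 6 were spread over 5 libraries. In the shallow KO-Bleo replicate 15, Pmvk, the phosphomevalonate kinase, was 14.7 RPKM against 24.3 to 24.9 RPKM, and Mvd was 10.4 RPKM against at most 9.13 RPKM in the other 3. In the shallow WT-Bleo replicate 6, Acoxl was 3.47 RPKM against 5.75 to 6.13 RPKM. Pmvk was 32.2 RPKM in WT-Bleo replicate 5 against 20.7 to 21.4 RPKM, Fads1 was 49.8 RPKM in WT-Sal replicate 2 against 43.6 to 44.6 RPKM, and Nsdhl, a sterol dehydrogenase, was 16.2 RPKM in KO-Bleo replicate 14 against 12.3 to 12.8 RPKM.

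A difference between genotypes in the change with bleomycin was marked for Acoxl, where the interaction was 1.12 on the log2 scale with an adjusted p of 0.0397 by limma.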

How the results depend on the processing

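No paired analysis was possible because the replicates are numbered from 1 to 16 and no group shares a number with another. With the study's own cut-offs in place of the adjusted p, the synthesis genes called numbered 4 in WT-Bleo against WT-Sal, 5 in KO-Bleo against KO-Sal, 3 in KO-Bleo against WT-Bleo, 4 in KO-Sal against WT-Sal and 3 in the interaction. Those counts that involve KO-Sal were made with replicate 10 included. In the same order, 11.1%, 7.45%, 1.26%, 0.861% and 2.06% of all genes were called. For KO-Bleo against WT-Bleo, limma-voom called 17, a filter on a mean value of at least 1 gave 3, pseudocounts of 0.1 and 5 gave 0 and 0, and a spread shared by all groups gave 7. Over all genes tested, these settings in order called 258, 36, 16, 20 and 116 higher and 323, 31, 12, 13 and 153 lower. The interaction gave 0 without both shallow libraries and 0 when KO-Sal replicate 10 was left out as well, a setting chosen after seeing the data. Over all genes, these fits called 16 and 20 positive and 11 and 10 negative differences. Leaving out each library in turn gave 13 to 19 calls in WT-Bleo against WT-Sal (13 without WT-Sal replicate 3), 6 to 14 in KO-Bleo against KO-Sal (6 without KO-Bleo replicate 13), 0 to 2 in KO-Bleo against WT-Bleo, 0 to 1 in KO-Sal against WT-Sal and 0 to 2 in the interaction. Over all genes, the same fits called 2398 to 3905 higher and 1480 to 2537 lower in WT-Bleo against WT-Sal. In KO-Bleo against KO-Sal the ranges were 1646 to 2277 and 1052 to 1796, and in KO-Bleo against WT-Bleo 0 to 25 and 0 to 22. In KO-Sal against WT-Sal they were 1 to 534 and 2 to 188, and in the interaction 3 to 30 and 0 to 30. The cause of these shifts was not tested.

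Among the genes named by rule and recomputed under each alternative, the fold changes that changed sign were close to 0 and not called. Srebf1 in WT-Bleo against WT-Sal was -0.015 with limma-voom, -0.031 with median-of-ratios scaling, -0.017 without both shallow libraries or without WT-Bleo replicate 6, and -0.0028 and -0.022 without WT-Sal replicates 1 or 3, in a range up to 0.062 (without WT-Sal replicate 2). In KO-Bleo against WT-Bleo, Srebf1 was -0.0096, -0.018 and -0.010 without WT-Bleo replicates 7 or 8 or KO-Bleo replicate 15, and at most 0.044 (without WT-Bleo replicate 6). Scap was -0.020 without both shallow libraries and -0.030 without KO-Bleo replicate 15, and at most 0.080 (without KO-Bleo replicate 14). Srebf2 in the interaction was -0.0046 and -0.016 without WT-Sal replicates 4 or 2, and at most 0.092 (without WT-Sal replicate 1). Genes outside that set changed sign further from 0, with no call, once KO-Sal replicate 10 was left out: Me1 in KO-Bleo against KO-Sal went from -0.13 to 0.18, and in the interaction Acly went from -0.040 to 0.18, Acaca from -0.0099 to 0.36 and Fasn from -0.25 to 0.094. Of 1176 checks of named genes, 1005 kept the direction and the side of the threshold, 142 no longer passed it, 16 newly passed it and 13 changed sign. These checks include the main fold changes judged by the study's thresholds, where the fold change was not recomputed and the rule itself differed. The 2 shallow libraries limit what can be read from genes with few reads there.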
